A study of Mus musculus with 64 samples.

Results

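The genes described are 9 mouse cytochrome P450 genes of the Cyp4 family, Cyp4a10, Cyp4a12a, Cyp4a12b, Cyp4a14, Cyp4a31, Cyp4a32, Cyp4f14, Cyp4f15 and Cyp4v3, out of 23338 genes counted in each library. They were chosen by their measured levels across the stages and by the difference between adult males and females, so the differences by stage, and between adult males and females, are given as descriptions with no test. RNA-seq libraries came from 64 samples labelled C57BL/6 (C57BL/6 J in the study's methods): 12 single eight-cell embryos (6 male, 6 female), 4 embryonic stem (ES) cell lines kept in 2i medium (2 male, 2 female), 24 fetal livers of late gestation, from 12 males and 12 females, and 24 adult livers, from 12 males and 12 females. The labels name no treatment and no altered allele. The ES lines were themselves derived from eight-cell embryos, and the embryo libraries were amplified by a single-cell protocol, whereas the others were made from total RNA. The study assigned the sex of the embryos from expression of Xist and Eif2s3y, so these genes are no independent check of the sex there.

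Cyp4 enzymes add a hydroxyl group to the far (omega) end of fatty acids and of lipid mediators made from them, using electrons passed on by cytochrome P450 reductase. The Cyp4a enzymes act on medium- and long-chain fatty acids, and Cyp4a10 and Cyp4a14 are standard targets of the fatty acid sensor PPAR-alpha in rodent liver. Cyp4a12a is the main mouse enzyme that makes 20-HETE, an arachidonic acid product that acts on blood vessels, Cyp4f14 hydroxylates leukotriene B4, and Cyp4v3 is the mouse counterpart of the human fatty acid hydroxylase gene CYP4V2.

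The 6 Cyp4a genes lie on chromosome 4 of GRCm38. Cyp4a12a (chr4:115299046-115332815, plus strand) and Cyp4a12b (chr4:115411624-115439034, plus strand) had 98.5% identical coding sequences, with 23 differing bases and a longest identical stretch of 342 bases. Cyp4a10 (chr4:115518264-115533649, plus strand), Cyp4a31 (chr4:115563649-115579015, plus strand) and Cyp4a32 (chr4:115600969-115621602, plus strand) formed a second set of close copies, with 96.6% identity between Cyp4a10 and Cyp4a31, 97.2% between Cyp4a10 and Cyp4a32 and 96.0% between Cyp4a31 and Cyp4a32. Cyp4a14 (chr4:115486200-115496142, minus strand) was more distant, at 75.3% identity to Cyp4a10. Cyp4f14 (chr17:32905070-32917342) and Cyp4f15 (chr17:32685627-32703352) lie on chromosome 17, on the minus and the plus strand, and Cyp4v3 (chr8:45304944-45333216, minus strand) lies on chromosome 8.

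The copies are shown because they decide which reads could be counted. Below are 60 coding bases of exon 6 of Cyp4a12a (chr4:115326628-115326687) and the matching bases of Cyp4a12b (chr4:115432881-115432940), with the bases of Cyp4a12b that differ from Cyp4a12a in capitals. No stretch of this length within a single exon held more differences in this pair.
Cyp4a12a: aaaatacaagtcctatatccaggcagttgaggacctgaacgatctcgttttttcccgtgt
Cyp4a12b: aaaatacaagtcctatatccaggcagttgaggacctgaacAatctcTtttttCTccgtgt

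The same is shown for 60 coding bases of exon 2 of Cyp4a10 (chr4:115519654-115519713), Cyp4a31 (chr4:115565034-115565093) and Cyp4a32 (chr4:115602284-115602343), with bases that differ from Cyp4a10 in capitals. The stretch was chosen, among those within a single exon, for the largest number of differences between the closest pair.
Cyp4a10: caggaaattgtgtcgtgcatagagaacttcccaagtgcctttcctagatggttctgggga
Cyp4a31: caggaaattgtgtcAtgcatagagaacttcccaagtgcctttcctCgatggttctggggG
Cyp4a32: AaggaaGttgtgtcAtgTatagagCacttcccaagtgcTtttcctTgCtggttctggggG

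Of all 100-base stretches of the transcript, 64.2% in Cyp4a12a and 63.8% in Cyp4a12b occurred in no other transcript, against 87.3% in Cyp4a10, 91.8% in Cyp4a31, 79.9% in Cyp4a32 and 100% in Cyp4a14, Cyp4f14 and Cyp4f15. Reads with more than 1 alignment were not assigned to genes, so the levels of Cyp4a12a, Cyp4a12b and Cyp4a32 leave out part of their reads, and values of the close copies are uncertain where a read was placed on the wrong one. Cyp4v3, at 94.2%, shares its remaining stretches with an overlapping annotated transcript on the same strand, Gm45753.

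Reads assigned to genes ranged from 1567583 in an adult female liver to 10386931 in an ES line. They numbered 1608848 to 4757610 in adult males, 1567583 to 3043818 in adult females, 5145371 to 8182572 in fetal males and 6223973 to 8499603 in fetal females. Levels are CPM (read counts scaled to a fixed total of reads on genes) with TMM scaling within each stage, and a level worth 3 reads was between 0.353 and 0.583 CPM in fetal livers and between 0.631 and 1.91 CPM in adult livers. Xist and the Y-linked genes Eif2s3y and Ddx3y matched the sex labels of both liver stages, with mean Xist levels of 0.320 CPM in adult males and 639 CPM in adult females. The 7 hepatocyte markers found in the files summed to 25914 to 35195 CPM in fetal livers and 31424 to 50500 CPM in adult livers. Erythroid markers summed to 153 to 194 CPM in adult males and 15 to 44.4 CPM in adult females, with no overlap. This gap was that of Alas2, with means of 171 CPM in adult males and 24.4 CPM in adult females. The other markers found had means of at most 3.85 CPM in adults of either sex. Of the 8 markers found, 3 were at 0 in every adult liver. These 3, Hbb-b1, Hba-a1 and Hba-a2, had means of at most 0.209 CPM in fetal livers too. The share of reads without a unique alignment was 42.2% to 61.1% in adult males and 32.7% to 43.2% in adult females. The part of these differences in the adult results was not tested.

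Among the fetal libraries, females 14 and 22 stood apart. Female 14 had 3654 CPM of 7 enterocyte genes, against a median of 9.32 CPM over the 24 fetal livers, and female 22 had 166 CPM of 4 genes of adult liver (Mup3, Mup20, Serpina3k and Cyp2c29), against a median of 0.951 CPM. Both gene lists were chosen after their values were seen. Acinar pancreas markers summed to 109 to 828 CPM in males 11 and 12 and females 14, 15 and 24, against at most 29.8 CPM in the other fetal livers.

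In embryos and ES lines the 9 genes were at or near the limit of detection. Cyp4a10, Cyp4a12a, Cyp4a31 and Cyp4a32 had no read in any of the 12 eight-cell embryos or the 4 ES lines. The other genes had at most 1 read in any of these libraries except Cyp4f14, which had 3 and 4 reads in the male ES lines (0.334 ± 0.0680 CPM, SD, n = 2) and 18 reads in 1 female embryo. A count of 0 allowed up to 0.644 CPM in the shallowest embryo library. Other Cyp4 genes were detected in the ES lines, where the 8 listed genes found in the files summed to 55 to 66.1 CPM, with Cyp4f16 at 19 ± 4.62 CPM in male and 19 ± 0.969 CPM in female lines (SD, n = 2).

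In fetal liver, Cyp4v3 and Cyp4f15 had the highest levels of the 9 genes. Cyp4v3 had 35.3, 38.2 and 46.5 CPM as the lowest, median and highest level in males and 34.8, 41.4 and 48.6 CPM in females. The levels of Cyp4f15, of the same branch as Cyp4f14, were 19.4, 25.5 and 32.7 CPM in males, against 18.8, 25.6 and 30.6 CPM in females. The sexes overlapped for both genes. Scaled to exon length, Cyp4f15 made up 41.3% and Cyp4v3 36.5% of the summed mean level of the 9 genes in fetal males, and 42.6% and 39.1% in fetal females.

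The Cyp4a genes were low in the fetus and spread widely among livers of the same sex. Cyp4a10 had 0.676, 3.57 and 8.70 CPM as the lowest, median and highest level in fetal males and 1.25, 3.33 and 10.9 CPM in fetal females. Cyp4a14 had 0.338, 3.23 and 6.10 CPM in males, against 0.586, 2.51 and 6.96 CPM in females. The highest fetal male was 12.9 times the lowest for Cyp4a10, against 1.31 times for Cyp4v3. The lowest Cyp4a10 value rests on 4 reads and the lowest Cyp4a14 value on 2 reads. Both are of male 12, a liver high in acinar pancreas markers. The SD of log2 CPM among fetal males was 0.93 for Cyp4a10 and 0.93 for Cyp4a14, against 0.22 for Cyp4f15, 0.13 for Cyp4v3 and a median of 0.17 over all genes tested. Cyp4a12a, Cyp4a12b and Cyp4a32 had totals of 35, 4 and 38 reads over the 12 fetal males and 30, 6 and 33 reads over the 12 fetal females.

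**Figure D1:**
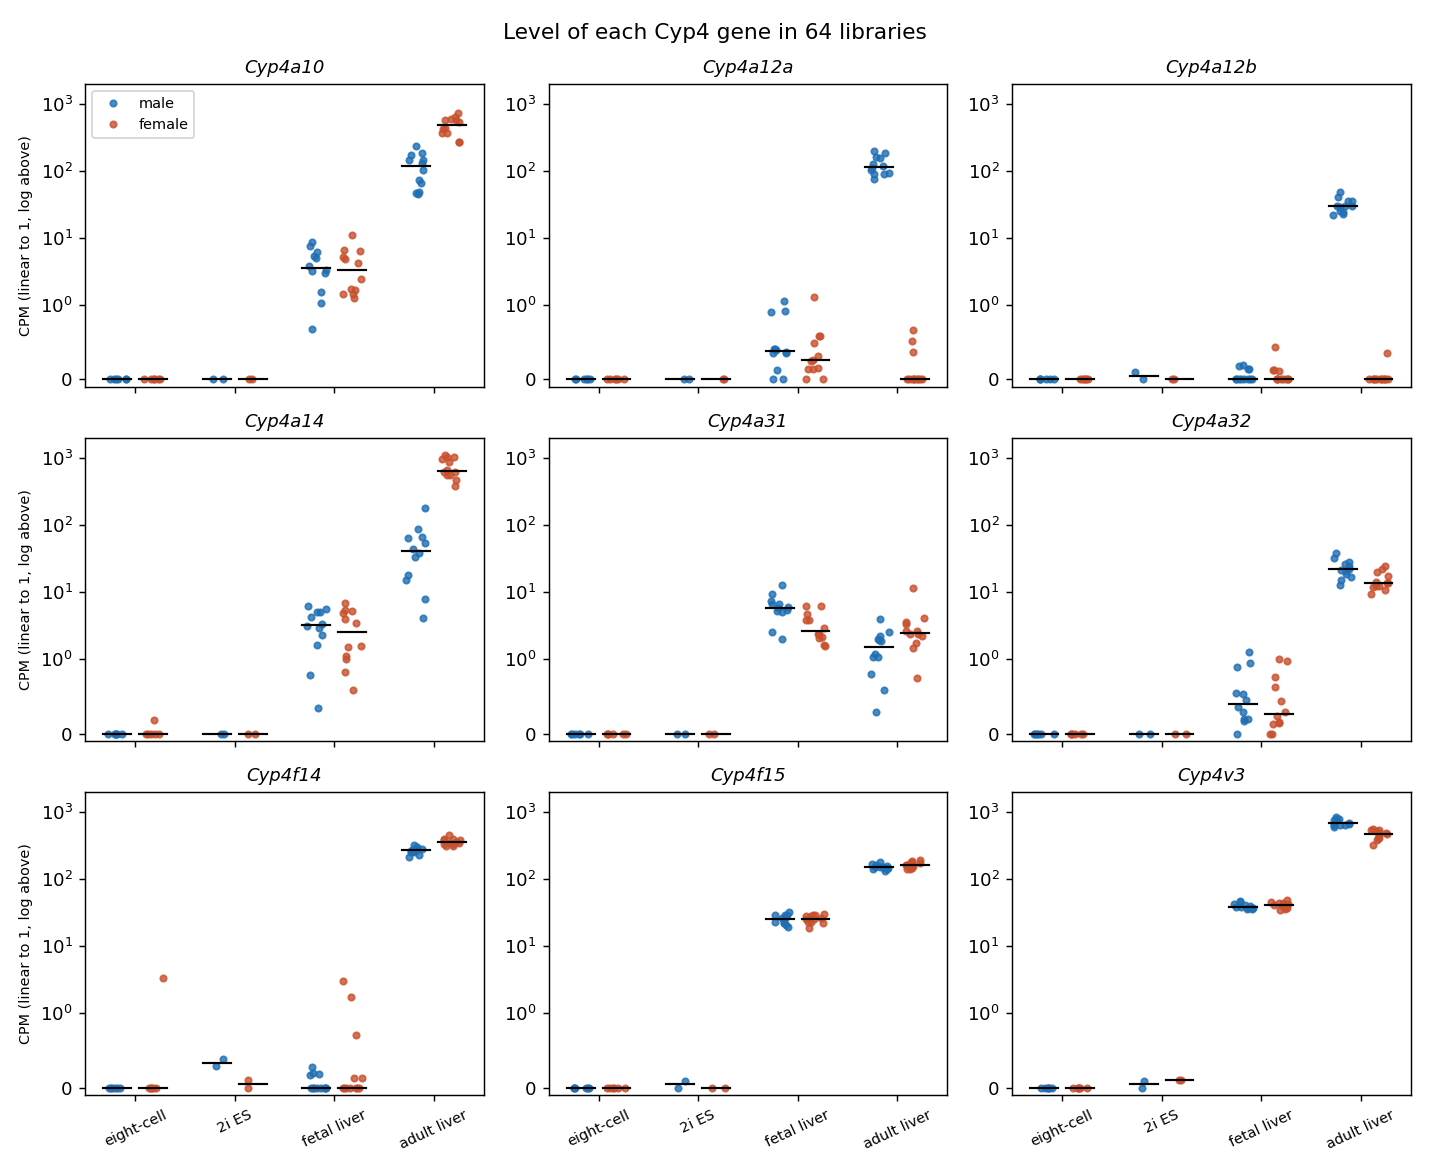
Level of each of the 9 genes in CPM (linear up to 1, log scale above) in eight-cell embryos, 2i ES lines, fetal livers and adult livers. Each point is 1 library, colour gives the sex, and the black line is the median of the group. Cyp4a12a and Cyp4a12b lie above 20 CPM in adult males and near 0 in the other groups, and Cyp4a31 has a lower median in adult than in fetal livers of both sexes.

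Fetal liver was the stage in which sex differences of these genes could be tested, since the choice of genes did not use that contrast. By edgeR's quasi-likelihood test with Benjamini-Hochberg adjustment, and calling genes at an adjusted p under 0.1 with log2 (male/female) beyond 0.5 in size, 4.64% of the 12930 genes tested were called. Of the 9 members, 5 passed the filter on low counts and 1 was called. Cyp4a31, a close copy of Cyp4a10, had 2.03, 5.85 and 12.7 CPM as the lowest, median and highest level in fetal males and 1.59, 2.64 and 6.21 CPM in fetal females. The sexes overlapped, with 5 of 12 males above the highest female. Its log2 (male/female) was 0.91 ± 0.26 (SE, edgeR, adjusted p = 0.0092).

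The fetal libraries of the sexes also differed in make-up. The share of uniquely aligned reads outside genes was 39.9% to 49.0% in fetal males and 34.1% to 38.1% in fetal females, without overlap, so the sex and this share cannot be told apart in these livers. With the share as a covariate, the log2 (male/female) of Cyp4a31 was -0.28 (edgeR, adjusted p = 0.995), and 9 genes in all were called. Within fetal males, Cyp4a31 and the share had r = 0.60 (permutation p = 0.0455, adjusted p = 0.0546 over 6 relations, rho = 0.45, permutation p = 0.147, n = 12), and r fell to 0.32 without the 2 livers farthest from the median share. Within fetal females r was 0.38 (permutation p = 0.225, adjusted p = 0.225, rho = 0.17, permutation p = 0.605, n = 12) and 0.03 without the 2 farthest livers. Male 11 had both the highest Cyp4a31 and the highest share, and without it the log2 value was 0.76 (edgeR, adjusted p = 0.0224). Without the 5 livers high in acinar pancreas markers it was 0.86 (edgeR, adjusted p = 0.00361). When reads of Cyp4a10, Cyp4a31 and Cyp4a32 were summed, the log2 value was 0.49 (edgeR, adjusted p = 0.229).

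**Figure D2:**
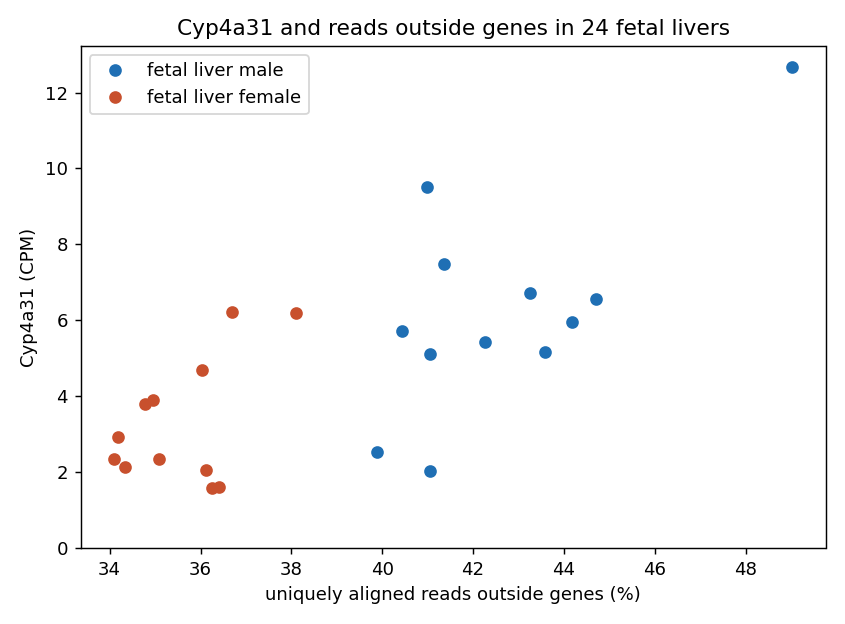
Cyp4a31 level (CPM) against the percentage of uniquely aligned reads outside genes in the 24 fetal livers, 1 point per liver, coloured by sex. The sexes separate on the horizontal axis at 38.1% to 39.9%, and they overlap on the vertical axis.

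The other members tested in fetal liver were not called. The log2 (male/female) was 0.05 ± 0.38 for Cyp4a10 (95% interval -0.74 to 0.83) and 0.16 ± 0.39 for Cyp4a14 (-0.63 to 0.96), intervals wide enough to hold differences past the threshold in either direction. For Cyp4f15 it was -0.01 ± 0.08 (-0.18 to 0.16) and for Cyp4v3 -0.07 ± 0.06 (-0.18 to 0.05), so a difference as large as the threshold lay outside both intervals. Adjusted p-values by edgeR were 0.944, 0.790, 0.932 and 0.391 in this order. Cyp4f14 had 5 reads over the 12 fetal males and 41 over the 12 females, with levels of 3.0 and 1.73 CPM in females 14 and 22, the 2 libraries that stood apart, and 0.704 CPM in female 21. It was called only when low counts were not filtered (log2 -2.56, edgeR, adjusted p = 0.0597).

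Adult livers held more of every member than fetal livers in at least 1 sex, with the exception of Cyp4a31. The values of this contrast chose the genes, and 67.1% of 13026 genes passed the same thresholds on adult against fetal liver, so nothing is read from the 9 members that did. Erythroid markers summed to 4275 to 6539 CPM in fetal livers, against at most 194 CPM in adult livers. In whole livers, fewer cells of a type and less RNA per cell cannot be told apart. Cyp4f14 was furthest from its fetal level. Its 5 reads in 12 fetal males and 10351 in 12 adult males gave a pooled ratio of 4267 (95% exact interval 1828 to 13144, counting error only). In females the ratio was 757 (558 to 1056), and reads from fetal females 14 and 22 entered it. The fitted log2 (adult/fetal) was smallest, among the genes higher in adults of both sexes, for Cyp4f15, at 3.21 ± 0.05. It was 6.40 ± 0.23 for Cyp4a10, 6.44 ± 0.29 for Cyp4a14, 5.87 ± 0.18 for Cyp4a32 and 4.39 ± 0.06 for Cyp4v3.

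Cyp4a12a and Cyp4a12b stood above their fetal level in adult males. In males the pooled ratio of adult to fetal reads was 263 for Cyp4a12a (95% exact interval 188 to 377) and 576 for Cyp4a12b (224 to 2116). In females it was 0.392 for Cyp4a12a (0.10 to 1.11) and 0.490 for Cyp4a12b (0.0107 to 4.04). These intervals cover counting error only. A fit that averages the sexes, which gave 3.94 ± 1.07 and 4.42 ± 1.28 on the log2 scale, describes neither sex.

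Cyp4a31 was not higher in adult than in fetal liver of either sex. Adult males had 0.283, 1.54 and 4.0 CPM as the lowest, median and highest level, and 10 of 12 fetal males lay above the highest of them. Adult females had 0.748, 2.49 and 11.4 CPM and overlapped fetal females. Female 19 held the highest value, from 18 reads. The fitted log2 (adult/fetal) over both sexes was -0.54 ± 0.23.

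Within adult liver, the family held 2 strongly male genes, 2 strongly female genes and members with smaller differences. The male genes were Cyp4a12a and Cyp4a12b. Cyp4a12a had 75.7, 115 and 199 CPM as the lowest, median and highest level in adult males, and 4 reads in all over the 12 adult females, 9 of which had none. Cyp4a12b had 21.7, 29.6 and 48 CPM in males and 1 read over the 12 females. No female came near the lowest male. The pooled male to female ratio was 867 for Cyp4a12a (95% exact interval 338 to 3182) and 869 for Cyp4a12b (156 to 34340), both covering counting error only.

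The female genes were the PPAR-alpha targets Cyp4a14 and Cyp4a10. Cyp4a14 had 4.04, 41.4 and 179 CPM in adult males and 380, 650 and 1102 CPM in adult females, a mean 14.5 times as high in females. Cyp4a10 had 44.5, 118 and 237 CPM in males, against 266, 487 and 732 CPM in females, 4.11 times as high. The sexes did not overlap for either gene. The log2 (male/female) was -3.88 ± 0.40 for Cyp4a14 and -2.04 ± 0.27 for Cyp4a10.

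Cyp4v3 was the other male-higher gene without overlap, with 594, 686 and 841 CPM in males, against 324, 480 and 559 CPM in females (log2 0.61 ± 0.08). Cyp4a32 overlapped, with 12.6, 21.7 and 38.3 CPM in males, against 9.36, 13.7 and 24.4 CPM in females (log2 0.61 ± 0.16). In the livers with under 40% of mapped reads on genes, 4 of each sex, the log2 value of Cyp4a32 was 0.26. Cyp4f14 leaned to females, with 217, 268 and 319 CPM in males, against 313, 354 and 452 CPM in females (log2 -0.43 ± 0.06), and 10 of 12 females lay above the highest male. Cyp4f15 differed least, with 132, 152 and 178 CPM in males, against 143, 165 and 192 CPM in females (log2 -0.12 ± 0.06). Cyp4a31 was below the filter, with 57 reads in all over the adult males and 84 over the adult females. Its sexes overlapped, and its log2 value without the filter was -0.91, opposite in sign to fetal liver. Of the 9 members, 8 passed the filter, Cyp4a12a and Cyp4a12b through the males alone, and 6 met the call rule, against 9.49% of 10372 genes. The sexes did not overlap for 5 members, against 2.86% of the genes tested. Both counts follow from how the genes were chosen.

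**Figure D3:**
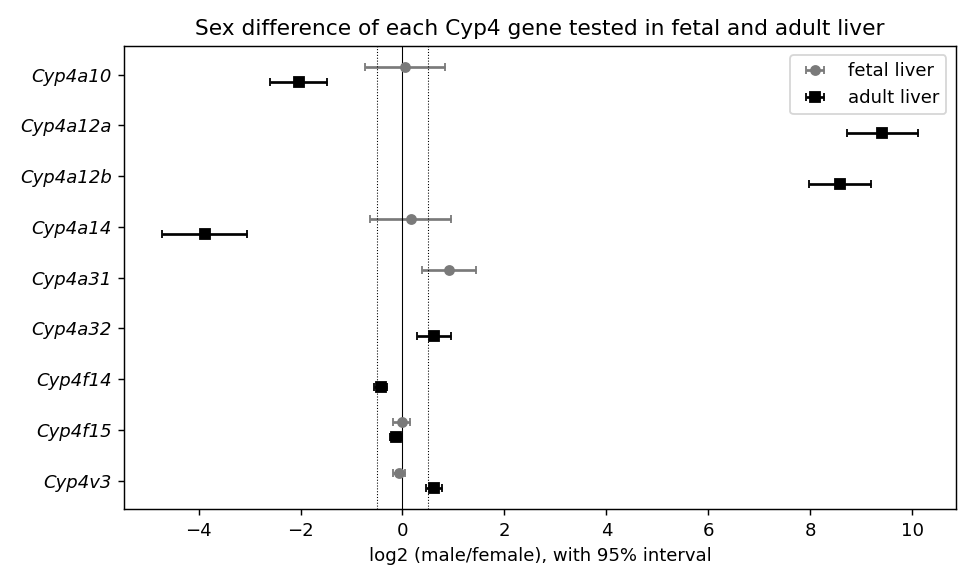
Log2 (male/female) of each gene that passed the filter on low counts, with its 95% interval, in fetal liver (grey circles) and adult liver (black squares). Dotted lines mark the fold threshold of 0.5. Cyp4a10 and Cyp4a14 are near 0 in fetal liver and at -2.04 and -3.88 in adult liver. Values of the adult fit above 8 rest on 4 and 1 female reads and depend on the prior count.

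Set side by side, Cyp4a14 had log2 (male/female) values of 0.16 in fetal and -3.88 in adult liver, Cyp4a10 of 0.05 and -2.04, and Cyp4v3 of -0.07 and 0.61. The difference between the stages was not tested, since the adult contrast chose the genes.

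The sexes also differed in which gene led the family. Scaled to exon length, adult males had the highest mean level in Cyp4v3 (187 ± 20.4 CPM per kb, SD, n = 12), followed by Cyp4f14 (111 ± 12.1) and Cyp4f15 (70.5 ± 6.14). Cyp4a10 (55.5 ± 29.9) and Cyp4a12a (51.9 ± 16.7) came next, then Cyp4a14 (20.4 ± 19.1), Cyp4a32 (15 ± 4.8) and Cyp4a12b (13 ± 3.25). From Cyp4f15 down to Cyp4a12b the ranges of 1 SD around neighbours in this order overlapped. Neighbours were measured in the same livers, so such overlap does not decide their order, and the ranks were not tested. Exon length was used in full, though reads with more than 1 alignment were left out. Levels per kb of the close copies, Cyp4a12a and Cyp4a12b most, may therefore be too low. Adult females had the highest in Cyp4a14 (297 ± 101) and Cyp4a10 (228 ± 70.1), then Cyp4f14 (150 ± 16.6), Cyp4v3 (122 ± 19.3) and Cyp4f15 (76.8 ± 7.58). Neighbours from Cyp4a14 to Cyp4v3 overlapped in the same way. Cyp4a14 and Cyp4a10 together with the other 7 genes summed to 885 CPM per kb in females and 525 CPM per kb in males, and the share of Cyp4a14 in this sum was 33.6% and 3.89%.

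**Figure D4:**
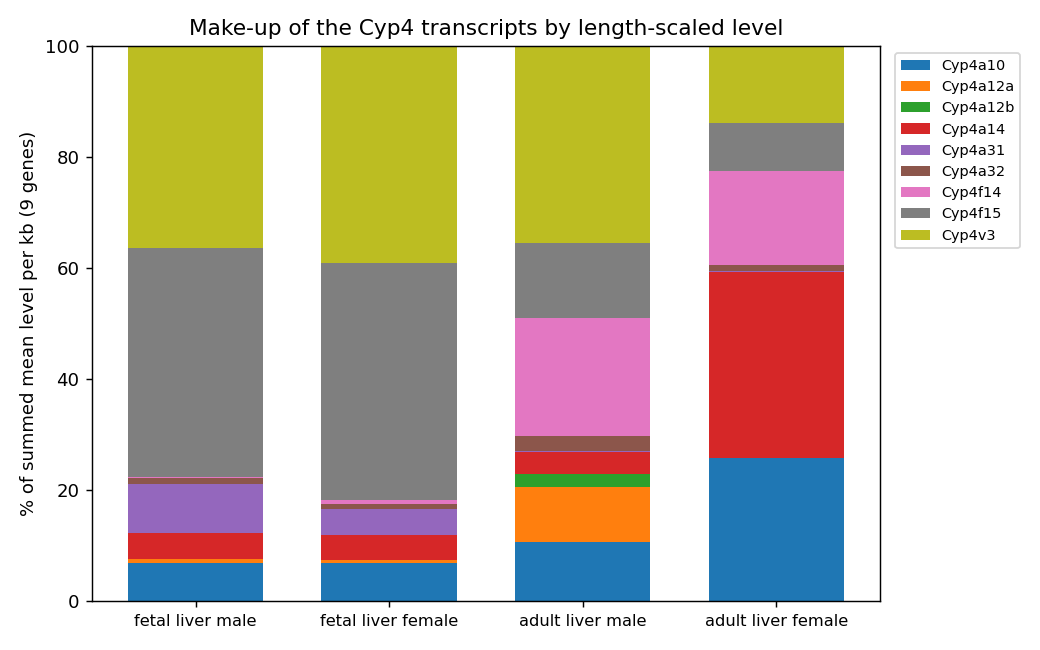
Share of each gene in the summed mean level per kb of exon of the 9 genes, in percent, for fetal and adult livers of each sex. Cyp4f15 and Cyp4v3 fill most of both fetal bars, Cyp4a14 holds 33.6% of the adult female bar and 3.89% of the adult male bar, and Cyp4a12a holds 9.89% of the adult male bar.

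Cyp4a14 and Cyp4a10 varied together from liver to liver within each sex. In adult males r of log2 CPM was 0.94 (rho = 0.99, permutation p = 1e-05 for both, the smallest that 100000 permutations can give, adjusted p = 0.00015 over 15 relations, n = 12), and 0.94 without the 2 livers farthest from the median. In adult females r was 0.92 (permutation p = 3e-05, adjusted p = 0.00022, rho = 0.87, permutation p = 0.00069, adjusted p = 0.00517, n = 12), and 0.88 without the 2 farthest. The same pair had r = 0.93 in fetal males and 0.96 in fetal females (permutation p = 2e-05 and adjusted p = 6e-05 over 6 relations for both, rho = 0.92 and 0.90, n = 12), and 0.92 and 0.96 without the 2 farthest livers. Without the livers high in acinar pancreas markers r was 0.89 in 10 fetal males and 0.96 in 9 fetal females. The 2 coding sequences share 75.3% of their bases, and no 100-base stretch of Cyp4a14 occurred in another transcript.

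**Figure D5:**
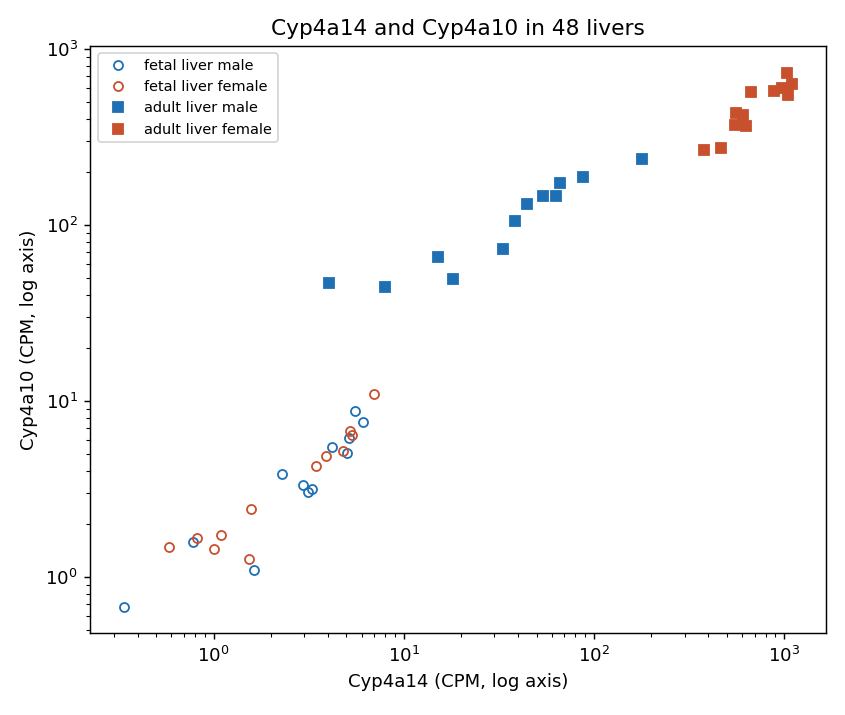
Cyp4a10 against Cyp4a14 in CPM, both on log axes, in 24 fetal livers (open circles) and 24 adult livers (squares), coloured by sex. Within each of the 4 groups the points rise together, with r between 0.92 and 0.96.

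Cyp4a31 rose with Cyp4a14 in fetal liver and, on few reads, in adult females. In fetal males r was 0.85 (permutation p = 0.00093, adjusted p = 0.00186, rho = 0.63, permutation p = 0.0335, adjusted p = 0.0503, n = 12) but 0.46 without the 2 farthest livers. In fetal females it was 0.82 (permutation p = 0.00175, adjusted p = 0.00262, rho = 0.86, n = 12) and 0.72 without the 2 farthest. In adult females it was 0.67 (permutation p = 0.0116, adjusted p = 0.0434, rho = 0.76, n = 12), and in adult males 0.10 (permutation p = 0.748, adjusted p = 0.748, n = 12). The relations of Cyp4a14 with Cyp4a32, Cyp4a12a, Cyp4f14, Cyp4f15 and Cyp4v3 in adult liver had adjusted permutation p-values of 0.109 or above. The mean of 27 PPAR-alpha target genes outside the family had r = 0.79 with Cyp4a14 in adult females (permutation p = 0.00313, adjusted p = 0.0156, rho = 0.78, n = 12), and 0.69 without the 2 farthest livers. In adult males r was 0.65 (permutation p = 0.0225, adjusted p = 0.0676, rho = 0.68, n = 12).

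Among the 10371 other genes tested in adult liver, those most like Cyp4a10 by the mean of r within the 12 males and within the 12 females were Cyp4a14 (0.93), Pctp (0.84), which carries phosphatidylcholine, Acot2 (0.81), a mitochondrial acyl-CoA thioesterase, Vnn1 (0.79), a pantetheinase, and Trim12a (0.79). Those most like Cyp4a14 were Cyp4a10 (0.93), Vnn1 (0.84), Aqp4 (0.79), a water channel, Acot2 (0.77) and Pctp (0.75). Acot2 and Vnn1 are also on the PPAR-alpha target list. Within the 12 adult males, those most like Cyp4a12a were Ugt2b5 (0.89), a glucuronosyltransferase, Tex261 (0.89), Apoa2 (0.88), an apolipoprotein of HDL, Pigp (0.87) and Rap2a (0.85). Each list holds the highest of 10371 values from 12 livers of a sex, a choice that by itself gives high r. Whether the listed genes are regulated together was not tested.

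The wider pathway was read from gene lists that were chosen with earlier results of these data known. Of 30 PPAR-alpha target genes, 27 were tested in adult liver, and 7 were called, all higher in females, against 9.49% of all genes tested, of which 672 were higher in females and 312 in males, although the median log2 (male/female) of the list was -0.03, against -0.00094 over all genes tested. Of them, Acot3, a peroxisomal acyl-CoA thioesterase, differed most, with 3.64 ± 2.98 CPM in males, against 102 ± 50.6 CPM in females (log2 -4.74 ± 0.37, edgeR, adjusted p = 8.37e-10, n = 12). Acot4, a related thioesterase, had a log2 value of -1.57 ± 0.13 (edgeR, adjusted p = 9.20e-11), and Ehhadh, the peroxisomal bifunctional enzyme, of -0.62 ± 0.07 (edgeR, adjusted p = 8.66e-09). Among the genes of the list that leaned to males, Creb3l3 and Pex11a had log2 values of 0.29 and 0.49, under the fold threshold. In fetal liver none of the 27 tested was called by edgeR, 12 had an unadjusted p under 0.05, and DESeq2 called 0. Small p-values were common there: without the fold threshold, 4807 of all 12930 genes tested had an adjusted p under 0.1 by edgeR. The 12 are therefore not read as a trait of this list.

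Steps that follow omega-hydroxylation moved in both directions in adult liver. Of 15 genes tested 1 was higher in males and 2 in females. Scp2, the sterol carrier and peroxisomal thiolase, had 5044 ± 464 CPM in males, against 2221 ± 163 CPM in females (log2 1.18 ± 0.05, edgeR, adjusted p = 5.77e-18, n = 12). Adh1, an alcohol dehydrogenase, had a log2 value of -0.56 ± 0.05 (edgeR, adjusted p = 1.17e-09), and Ehhadh was the other female-higher gene. Por, the reductase that feeds electrons to P450 enzymes, was the 1 of 4 redox partners called (193 ± 59.9 CPM in males, against 293 ± 52.8 CPM in females, log2 -0.60 ± 0.14, edgeR, adjusted p = 0.00302, n = 12). Among 7 arachidonate and leukotriene enzymes tested, Ephx2, the soluble epoxide hydrolase, was called, higher in males (log2 0.59 ± 0.06, edgeR, adjusted p = 2.96e-09).

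Of 10 regulators tested in adult liver, 1 was higher in males and 3 in females. Cux2, a female-specific repressor of adult mouse liver, had 0.382 ± 0.286 CPM in males, against 30.0 ± 10.4 CPM in females (log2 -6.07 ± 0.27, edgeR, adjusted p = 3.99e-18, n = 12). Bcl6, a repressor known for higher levels in male liver, had 37.2 ± 23.7 and 10.4 ± 8.61 CPM (log2 1.79 ± 0.43, edgeR, adjusted p = 0.0035, n = 12). Both the nuclear receptor gene Nr1i3 (log2 -0.68 ± 0.14, edgeR, adjusted p = 0.000677) and the coactivator gene Ppargc1a (log2 -0.59 ± 0.19, edgeR, adjusted p = 0.022) were higher in females. In fetal liver, Ppard was the 1 of 11 regulators called (log2 0.66 ± 0.12, edgeR, adjusted p = 0.000213), and with the share of reads outside genes as a covariate none was. Cux2 was not female-specific there, with 39.8 ± 9.03 CPM in fetal males and 32.7 ± 4.16 CPM in fetal females (log2 0.28).

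Other Cyp4 genes were counted in the same libraries: 8 of 12 listed symbols were found. In adult liver 3 were tested and none was called by edgeR, while 1 had an unadjusted p under 0.05 and DESeq2 called 1. In fetal liver 5 were tested and Cyp4f16 was called, with 8.16 ± 0.926 CPM in males, against 12.8 ± 11.3 CPM in females (log2 -0.65 ± 0.26, edgeR, adjusted p = 0.0626, n = 12). Female 14, with 48.4 CPM, lay far above the next female at 11.8 CPM. Without females 14 and 22 its log2 value was -0.23 (edgeR, adjusted p = 0.0391), under the fold threshold, and DESeq2 called none of the 5. Of the markers of other cells, Kupffer cell and macrophage markers were called in 5 of 8 in adult liver, all higher in females. Of 7 sinusoidal endothelial markers 1 was called, and all 7 had a lower level in males with an unadjusted p under 0.05. Hepatocyte markers had a median sum of 36979 CPM in adult males and 43600.5 CPM in adult females, and 0 of 7 were called by edgeR or DESeq2, 4 with an unadjusted p under 0.05. Of all 10372 genes tested in adult liver, 9.49% were called. Without the fold threshold, 3400 of them had an adjusted p under 0.1 by edgeR, so small p-values were common. The part of these markers in the adult results was not tested. Kidney tubule markers summed to at most 0.660 CPM in any adult liver.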

How the data were processed

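RNA-seq was analysed in 64 samples grouped by stage and sex labels. The authors deposited raw counts per gene: per the methods, reads were aligned to mm10 with TopHat 2.0.4 and Bowtie2 2.1.0 (submitters' processing notes), duplicates were removed with Picard and reads were counted with HTSeq. Its strand setting is not given in the sources used here, so reads of overlapping antisense genes may not be told apart. Reads in rows that name no gene, 28.0% to 73.2% of each library's counted reads, were left out. Members and gene lists were chosen with earlier results of these data known. Genes named were the 9 members, called genes of the other Cyp4 list, the 3 of smallest adjusted p in each direction of each other list (called ones where there were any) and the 5 most similar to Cyp4a10, Cyp4a14 and Cyp4a12a. Not every gene named by this rule is reported here.

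Counts were tested in R 4.3.3 with edgeR 4.0.16 (TMM, filterByExpr, robust quasi-likelihood F test, two-sided, Benjamini-Hochberg over all genes tested), checked on simulated data. The study used DESeq2, tried here as an alternative (1.42.0). The SE of a log2 value is its size divided by the root of its F statistic, and log2 CPM used a pseudocount of 0.5. Permutation tests were two-sided. Livers were split at 40% of mapped reads on genes with mapped totals from the study's sequencing statistics. Pooled ratios have exact 95% binomial intervals, which cover counting error only. Gene positions are of GRCm38, the build named mm10 by the authors. The labels do not say whether fetuses shared a litter, so p-values measure the spread between these samples.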

Additional observations from a re-analysis of the deposited data

Results flagged for a closer look

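Cyp4f14 in the female eight-cell embryo 10 had 3.38 CPM, from 18 reads, while the other 5 female embryos had none. The gap between this embryo and the next is the whole range of its group, which is so for any value beside 5 values of 0, so the flag says only that 1 embryo held reads. None of the other 8 genes described exceeded 3 reads in an embryo, and they were not screened there. Groups of 12 livers and of 2 ES lines were not screened in this way.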

How the results depend on the processing

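The sex call of Cyp4a31 in fetal liver, the 1 member called, held with DESeq2, with its size factors, without the low-count filter, without a fold threshold, without females 14 and 22 (adjusted p = 0.0265, edgeR), without male 11 and without the 5 livers high in acinar pancreas markers. With the share of reads outside genes as a covariate 0 members were called and its log2 value was -0.28, the opposite sign; the cause was not tested. Without the filter 2 members were called, the second being Cyp4f14, which rests on females 14 and 22. Over all genes, fetal calls numbered 600, against 1057 without the filter and 9 with the covariate, and adult calls 984, against 1518 without the filter. Of the 1057, 645 were higher in males, against 493 of the 600. Cyp4a31 in adult liver was fitted only without the filter (log2 -0.91) or with DESeq2 (log2 -0.96), as a description. It met the call rule in both, on few reads and with the sign opposite to fetal liver. Replicate numbers are shared by fetal and adult livers of different animals. Same-numbered livers deviated together in 0 of 24 pairs (r from -0.09 to 0.05), so no pairing was seen in expression. This check cannot show whether same-numbered livers shared a lane or a family. With the replicate block, 9 members became 8 in the adult against fetal fit, since Cyp4a31 moved to -0.45. The sex-averaged Cyp4a12a moved from 3.94 to 7.52 and Cyp4a12b from 4.42 to 7.83, and 8753 genes passed in place of 8742. Alternatives chosen after seeing the data were those leaving out named libraries, the fetal relations and the partial correlation. For Cyp4a14 and Cyp4a10, r in adult liver was 0.94 in males and 0.93 in females in the livers with at least 40% of mapped reads on genes. Depth limits Cyp4a12a, Cyp4a12b, Cyp4a32 and Cyp4f14 in fetal liver, where they were below the filter.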
